A study of Mus musculus with 4 samples.

Results

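Arteries and veins are lined by endothelial cells with different gene programmes, and 10 genes known as labels of those programmes were examined in the retina: 8 artery genes (Efnb2, Gja4, Gja5, Gja1, Sema3g, Bmx, Mecom and Alpl) and 2 vein genes (Ephb4 and Nr2f2). They were chosen by name, out of 21631 protein-coding genes on the autosomes and X. Each was described by every deposited peak that overlapped its gene body plus 10 kb on each side, called its window here. Peaks within 1 kb of either end of the gene were counted apart as gene-end peaks.

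The data were ATAC-seq peak lists, in which a transposase marks the DNA that chromatin leaves accessible. Libraries were made from 2000 endothelial cells each, sorted by FACS from the retina of C57BL/6 mice labelled P16. There were 2 libraries from mice with the genotype Zeb1 knockdown, titled Zeb1-CKO, and 2 from control mice. Zeb1 encodes a transcriptional repressor known mainly for silencing epithelial genes. The Cre driver, the allele, the number of animals per library and whether replicates were separate animals or pools are not given in the sources used here, so spread between libraries may be technical.

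As background, an artery cell displays the transmembrane ligand ephrin-B2 (Efnb2), and a vein cell displays its receptor EphB4 (Ephb4). Signalling between them keeps the vessel types apart. Notch signalling and SoxF factors promote the arterial programme, while the nuclear receptor COUP-TFII (Nr2f2) promotes the venous programme and holds Notch down. In the retina, arteries and veins alternate around the optic nerve, with most endothelial cells in the capillaries between them.

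Open chromatin was unevenly spread over these genes, and most of their well-ranked peaks were listed in both genotypes. Efnb2, Nr2f2, Sema3g and Mecom had a window peak in all 4 libraries, as did 32.1% of all genes, and Bmx and Alpl had none in any. Gja4 was the single member with a window peak in both knockdown libraries and neither control library. This pattern, called knockdown-only, made up 1 of the 8 members with any window peak. Over all genes with a window peak it made up 6.01% (856 of 14242). No member had the reverse, control-only pattern, which made up 0.288% of genes.

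Promoter sequences are shown for 4 members that differ in the peaks listed at their start. Gja4 had a peak there in the knockdown libraries alone, Efnb2 in all libraries, Ephb4 in all but control replicate 1, and Bmx in none. The Gja4 peaks were weak, 75.7% and 81.2% from the top of the knockdown lists. A missing peak may also mean too few reads. Each runs from 250 bases before the gene start to 50 after it, from RefSeq on GRCm38.p6, and capitals mark matches to the motifs described further on.
Gja4 promoter, chr4:127313990-127314289, minus strand: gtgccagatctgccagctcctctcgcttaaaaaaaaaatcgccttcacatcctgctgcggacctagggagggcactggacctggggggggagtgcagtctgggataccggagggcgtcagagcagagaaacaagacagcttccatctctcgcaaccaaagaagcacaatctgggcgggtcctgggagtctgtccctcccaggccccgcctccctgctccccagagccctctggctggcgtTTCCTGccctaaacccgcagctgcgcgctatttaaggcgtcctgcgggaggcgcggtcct
Efnb2 promoter, chr8:8661193-8661492, minus strand: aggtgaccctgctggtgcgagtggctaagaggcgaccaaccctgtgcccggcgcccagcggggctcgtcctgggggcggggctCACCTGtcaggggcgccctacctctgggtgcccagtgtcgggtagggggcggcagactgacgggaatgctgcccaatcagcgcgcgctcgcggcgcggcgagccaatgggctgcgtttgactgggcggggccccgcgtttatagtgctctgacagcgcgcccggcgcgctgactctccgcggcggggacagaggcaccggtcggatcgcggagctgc
Ephb4 promoter, chr5:137349859-137350158, plus strand: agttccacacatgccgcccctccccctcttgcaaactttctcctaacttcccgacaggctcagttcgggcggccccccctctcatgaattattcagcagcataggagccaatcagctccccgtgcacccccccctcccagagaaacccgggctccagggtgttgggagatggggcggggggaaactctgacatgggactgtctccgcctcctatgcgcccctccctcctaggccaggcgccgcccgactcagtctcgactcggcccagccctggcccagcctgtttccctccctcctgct
Bmx promoter, chrX:164258144-164258443, minus strand: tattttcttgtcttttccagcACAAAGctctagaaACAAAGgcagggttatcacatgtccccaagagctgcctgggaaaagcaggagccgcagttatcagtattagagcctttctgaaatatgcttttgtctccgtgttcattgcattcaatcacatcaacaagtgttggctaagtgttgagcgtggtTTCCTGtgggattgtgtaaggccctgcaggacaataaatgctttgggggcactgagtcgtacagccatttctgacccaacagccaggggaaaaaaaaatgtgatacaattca

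The lists held 13689 and 19886 peaks in knockdown replicates 1 and 2, and 7608 and 13672 in control replicates 1 and 2. Control replicate 1 thus had the shortest list. Read depth is unknown, so a missing peak may mean closed chromatin or too few reads. A peak from a minority of cells, such as the artery cells in a sort dominated by capillary cells, cannot be told apart from weak opening in all cells. The labelled cell type was checked with 12 pan-endothelial genes. All 12 had a window peak in knockdown replicates 1 and 2 and in control replicate 2, and 9 had one in control replicate 1. At gene ends, 3 of the 12 (Cdh5, Tie1 and Cldn5) had a peak in every library, 6 had none in any (Pecam1, Tek, Erg, Egfl7, Emcn and Ptprb), and the adhesion gene Esam was knockdown-only. By library, 5 and 6 of the 12 had a gene-end peak in the knockdown libraries and 3 and 5 in the controls. Over all genes the shares were 39.5% and 45.2% in the knockdown libraries and 22.0% and 38.5% in the controls. The gene-end counts of these 12 genes were thus close to those of all genes. Of 12 mural genes (pericytes and smooth muscle), 3 and 5 had a window peak in the knockdown libraries and 0 and 2 in the controls, and 6 (among them the smooth muscle gene Acta2 and the pericyte gene Rgs5) had none in any list. Notch3, the Notch receptor of mural cells, was knockdown-only over its window, with 1 and 3 peaks in the knockdown libraries and 0 and 0 in the controls. Its best peaks stood 93.9% and 63.1% from the top in knockdown replicates 1 and 2. Its part in the members' results was not tested. Over all genes, the knockdown-only pattern made up 7.82% of those with a gene-end peak and 6.01% of those with a window peak. Photoreceptor genes followed the replicate number, with gene-end peaks at 8 of 12 in both replicate 2 libraries and at 0 in both replicate 1 libraries. Over windows, 5 and 12 of these 12 had a peak in the knockdown libraries and 3 and 12 in the controls. In both replicate 2 libraries this equalled the pan-endothelial count, so the window check did not set the 2 lists apart there. At gene ends, the photoreceptor count of 8 in each replicate 2 library was above the pan-endothelial counts of 6 and 5. Of 10 leukocyte genes, 3 and 3 had a window peak in the knockdown libraries and 3 and 4 in the controls. For 8 pigment epithelium genes the counts were 4 and 4 against 3 and 4.

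The ligand gene Efnb2 (chromosome 8, 8617235 to 8661242, minus strand) had the best-ranked promoter peak among the members. That peak lay over the gene start in all 4 libraries. In knockdown replicate 1 it ran from 8661157 to 8662016, in knockdown replicate 2 from 8661199 to 8661584, in control replicate 1 from 8661120 to 8661490, and in control replicate 2 from 8661165 to 8661528. The authors' fold enrichment over the library's own background was 5.70 and 7.86 in the knockdown libraries and 4.75 and 7.85 in the controls. Ordered by −log10 q within its own list, it stood 18.4% and 10.9% from the top in the knockdown libraries and 23.3% and 12.3% from the top in the controls. The promoter was therefore among the stronger peaks of each list.

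Inside the Efnb2 gene, peaks were listed in the knockdown libraries alone. The window held 3 peaks in each knockdown library and 1 in each control library. A knockdown-only region of 538 bp, from 8623358 to 8623895, lay 37347 bp into the gene. Its peaks were near the bottom of their lists, 98.1% and 91.2% from the top in knockdown replicates 1 and 2. The other 2 intragenic peaks were each found in 1 library, at 24227 bp from the start in knockdown replicate 1 and at 16310 bp in knockdown replicate 2. They stood 95.3% and 97.6% from the top. Without these weak peaks, as when a −log10 q of at least 3 was required, each library had 1 peak at Efnb2.

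The receptor gene Ephb4 (chromosome 5, 137350109 to 137374522, plus strand) had 1 peak in both knockdown libraries and in control replicate 2, over its start, and none in control replicate 1. The peak was 658 and 728 bp wide in the knockdown libraries, 137349761 to 137350418 and 137349797 to 137350524, and 354 bp wide in control replicate 2, 137349798 to 137350151. It stood 20.8% and 30.8% from the top in the knockdown lists and 27.0% in that control list. The nearest peak in control replicate 1 was 42242 bp from the gene start. Being held by every list except control replicate 1 was common, at 16.6% of all 25263 merged regions (peaks of the 4 lists joined where they overlap or touch), so the missing peak is not read as a difference between genotypes. The lncRNA gene Gm52791 ends at 137350052, inside this peak, and peaks carry no strand, so its signal cannot be told apart from that of Ephb4. In regions held by all 4 lists the median covered length was 570 and 553 bp in the knockdown libraries and 408 and 451 bp in the controls, so wider peaks were not particular to Ephb4.

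**Figure D1:**
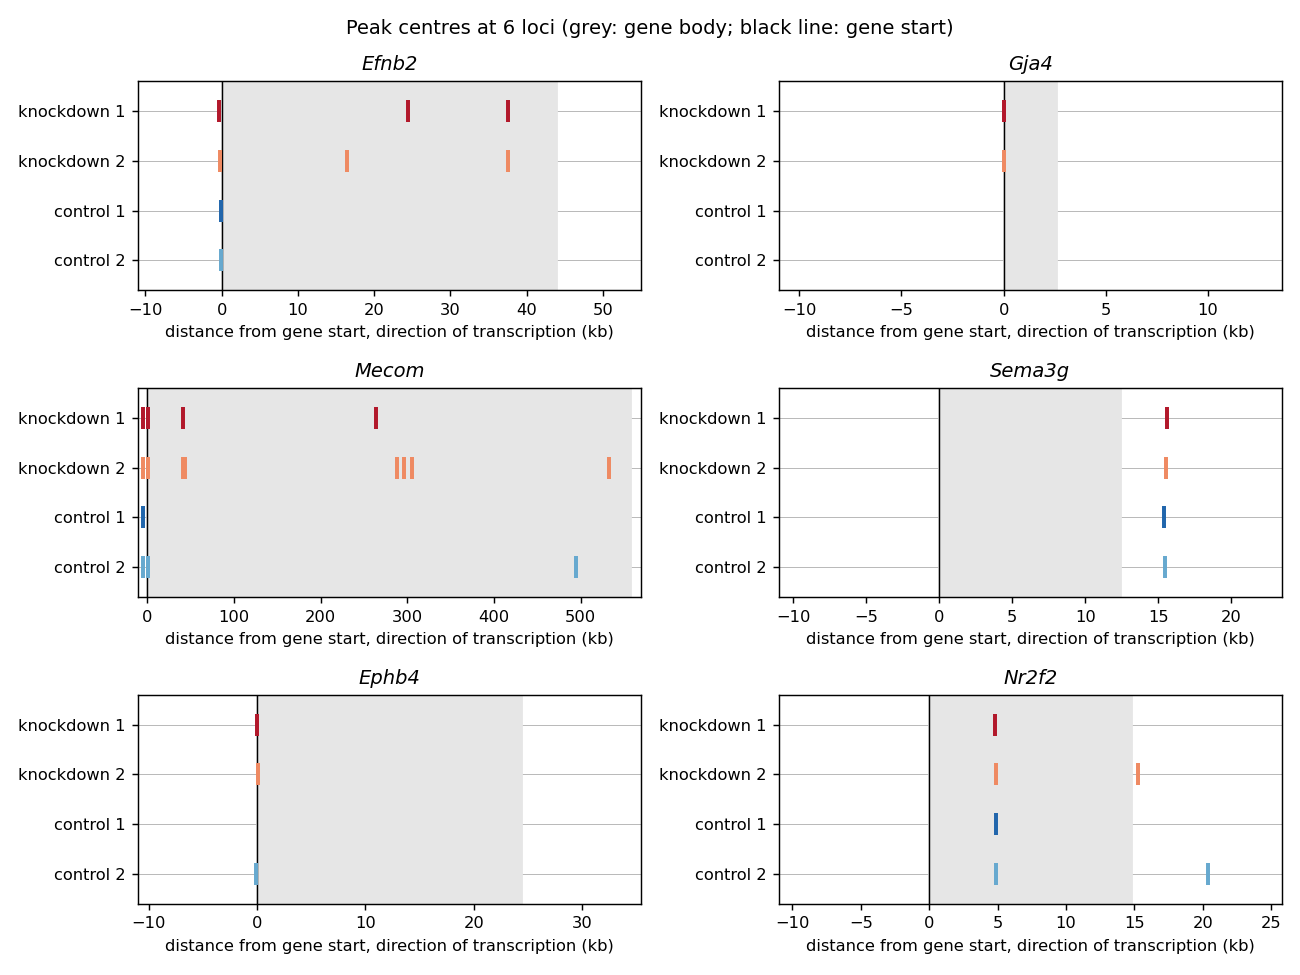
Centres of all peaks in the windows of 6 members, by distance from the gene start in kb, with 1 row per library (knockdown replicates 1 and 2, then control replicates 1 and 2). Efnb2 has 1 peak at its start in every row and further peaks in its body in the knockdown rows, and Gja4 has peaks in the knockdown rows alone.

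The connexins form gap junctions, through which arterial endothelial cells share ions and small molecules, and the 3 members gave 3 different patterns. Gja4 (chromosome 4, 127311420 to 127314039, minus strand) had 1 peak in each knockdown library, both over the gene start, at 127313935 to 127314134 in replicate 1 and 127313815 to 127314191 in replicate 2. It had no peak in either control library, where the nearest peaks lay 187895 and 49917 bp from the start in replicates 1 and 2. The fold enrichment was 4.00 and 4.11, and the peaks stood 75.7% and 81.2% from the top of the knockdown lists. Their −log10 q was 2.70 and 2.35, so with a −log10 q of at least 3, or with lists of equal length, Gja4 had no peak in any library. Gja4 accounted for the single knockdown-only gene end among the 5 members with any gene-end peak. Among all 10499 genes with such a peak, 7.82% had that pattern and 0.0667% the control-only one. The other 5 members had no gene-end peak in any list, as had 51.5% of all genes.

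Gja5 (chromosome 3, 97032402 to 97053634, plus strand), another artery connexin, had no window peak in either knockdown library and 1 in control replicate 1. This peak lay beyond the gene, 6509 bp from its far end, at 97060143 to 97060460, and stood 68.3% from the top. The other 3 lists had no peak within 126095 bp of the Gja5 start.

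Gja1 (chromosome 10, 56377300 to 56390419, plus strand) encodes the most widely expressed connexin, also abundant in astrocytes and smooth muscle. Of 12 astrocyte and Muller glia genes, 5 and 6 had a window peak in the knockdown libraries and 3 and 6 in the controls. It had no window peak in either knockdown library, none in control replicate 1 and 1 in control replicate 2, at 56378858 to 56379158, 1558 bp into the gene and 88.8% from the top. In the other 3 lists the nearest peak was 109295 to 148213 bp from the start. The members that label arterial junctions were thus covered by 1 weak peak per list or by none.

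**Figure D2:**
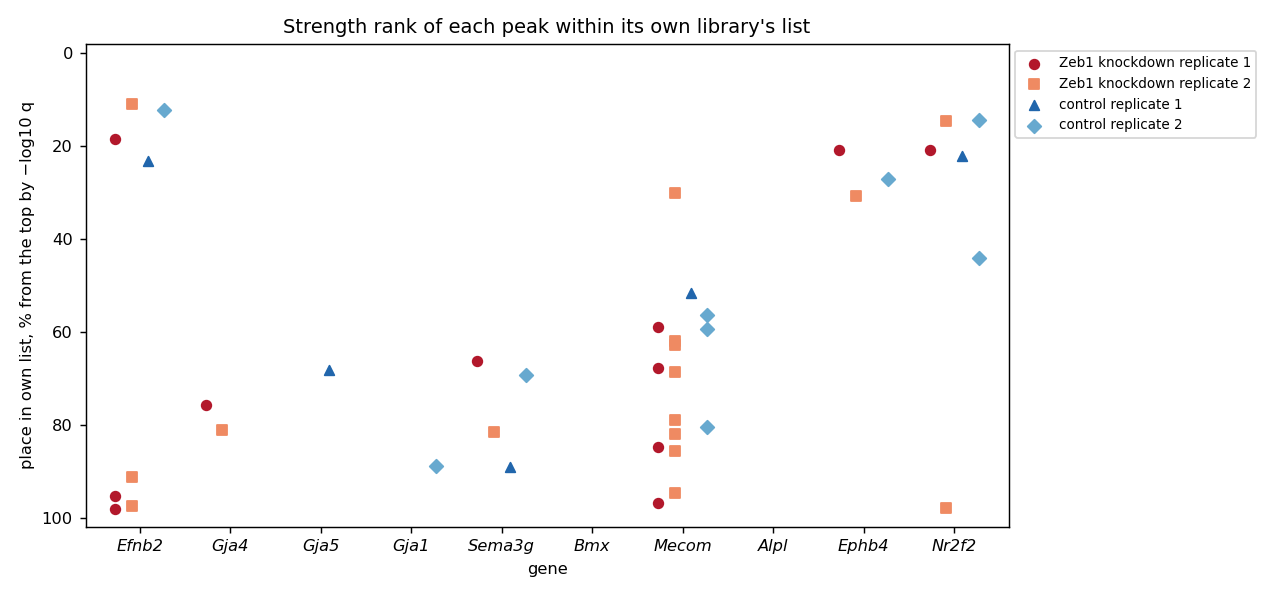
Place of every window peak within its own library's list, in % from the top by −log10 q, by gene. Peaks at Efnb2, Ephb4 and Nr2f2 include places of 30.8% or better, as does 1 Mecom peak, at 30.2% in knockdown replicate 2. Those of Gja4 stand at 75.7% and 81.2%.

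The venous regulator Nr2f2 (chromosome 7, 70351946 to 70366746, minus strand) had 1 strong peak in all 4 libraries, but not at its listed start. The RefSeq promoters used here gave 1 start for it, and whether the peak lies at another start was not tested. The shared region ran from 70361662 to 70362126, 4620 bp into the gene. It stood 20.9% and 14.6% from the top in the knockdown lists and 22.2% and 14.3% in the controls, and its fold enrichment was 5.33 and 7.08 in the knockdown libraries and 4.55 and 7.51 in the controls. Each library's values are relative to its own list and background. Each replicate 2 library held 1 further peak: knockdown replicate 2 had one 400 bp beyond the far end of the gene, 97.9% from the top, and control replicate 2 had one 5429 bp beyond it, 44.1% from the top. The counts were then 1 and 2 peaks in the knockdown libraries and 1 and 2 in the controls.

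Mecom (chromosome 3, 29951296 to 30509759, minus strand), a zinc-finger transcription factor of arterial and blood-forming endothelium, held the most peaks, as by far the longest member. Its window of 578 kb had 4 and 8 peaks in the knockdown libraries and 1 and 3 in the controls. Per 100 kb of window this was 0.691 and 1.38 peaks in the knockdown libraries and 0.173 and 0.519 in the controls, against 4.69 in each knockdown library and 1.56 in each control library for Efnb2. The knockdown counts were both above the control counts at Mecom, Efnb2 and Gja4. Such separation was met by 3 of the 10 members and by 9.42% of all genes (2038 of 21631), and by 14.3% of the genes with any window peak. The reverse separation was met by 0 members and by 0.273% of all genes.

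The 2 Mecom regions held by 3 or more libraries lay near its upstream start, and the other 8 lay inside the gene at 41354 bp or more from it. A region held by all 4 libraries, 30515052 to 30515404, lay 5293 bp upstream of that start, and its peaks stood 67.7% and 61.9% from the top in the knockdown lists and 51.6% and 56.4% in the controls. A region about 1 kb inside the gene, 30508080 to 30508842, was held by both knockdown libraries and control replicate 2. Its distance to the start was 1046 and 1061 bp in the knockdown libraries and 917 bp in the control library, so it counted as a gene-end peak in the control library alone. With a gene-end window of 3 kb, it counted in all 3.

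A knockdown-only region, 30468085 to 30468405, lay 41354 bp into Mecom. Its peaks stood 84.9% and 78.9% from the top in knockdown replicates 1 and 2. The other 7 Mecom regions were each held by 1 library: 1 by knockdown replicate 1, 5 by knockdown replicate 2 and 1 by control replicate 2. The best-ranked of these, 30203791 to 30204057 in knockdown replicate 2, stood 30.2% from the top. All peaks deep in the gene, 263139 bp and more from the upstream start, were in regions held by 1 list. Mecom has 2 listed starts, and the downstream promoter spans 30013155 to 30013454. The region held by control replicate 2 alone, 30015376 to 30015575, lay on its upstream side without covering it.

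Sema3g, Bmx and Alpl complete the artery genes. Sema3g (chromosome 14, 31217873 to 31230352, plus strand), a secreted semaphorin of arterial endothelium, had 1 peak in each of the 4 libraries, in 1 shared region from 31232956 to 31233936. It was 981 and 799 bp wide in the knockdown libraries and 349 and 717 bp wide in the controls. The region lay beyond the gene, and the peaks began 2604 and 2647 bp from its far end in the knockdown libraries and 2745 and 2627 bp from it in the controls. The gene Phf7 begins or ends at 31237689, on the other side of the region. The peaks were of middling to low rank, 66.3% and 81.5% from the top in the knockdown lists and 89.1% and 69.4% in the controls. The Sema3g start itself had no peak within 1 kb in any list.

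Bmx (chromosome X, 164192842 to 164258193, minus strand), a cytoplasmic tyrosine kinase, and Alpl (chromosome 4, 137741731 to 137796384, minus strand), the tissue-nonspecific alkaline phosphatase used to stain arterial vessels, had no peak in windows of 85.4 and 74.7 kb. Over all genes, 34.2% had no window peak in any list. For Bmx the nearest peak to the start was 161156 and 161210 bp away in the knockdown libraries and 161186 and 11195 bp away in the controls. For Alpl these distances were 79151 and 65580 bp in the knockdown libraries and 202143 and 39617 bp in the controls. Artery identity was therefore not visible as open chromatin at these 2 genes in any list.

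**Figure D3:**
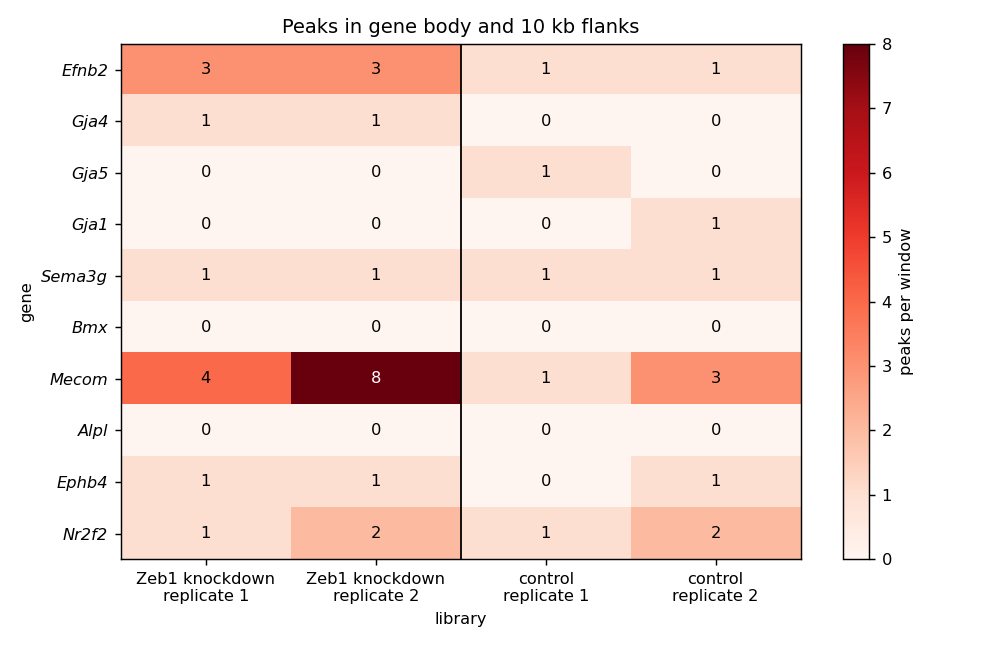
Number of peaks in the gene body and 10 kb flanks of each member, by library, knockdown libraries to the left of the line and controls to the right. Mecom ranges from 1 to 8 peaks, Bmx and Alpl are at 0 throughout, and Gja4 is at 1 in both knockdown libraries and 0 in both controls.

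Some calls lay close to the limits of the windows. Just outside the 10 kb flank were an Ephb4 peak at 10443 bp and a Sema3g peak at 11023 bp, in knockdown replicates 1 and 2, and a Bmx peak at 11195 bp in control replicate 2. The farthest flank peaks inside it were those of Gja5 at 6509 bp and Nr2f2 at 5429 bp, in control replicates 1 and 2, and the Mecom peaks upstream of the gene.

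Summed over the members, the knockdown lists held more peaks, most of the surplus being at Mecom. The 10 windows held 11 and 16 peaks in the knockdown libraries and 5 and 9 in the controls, that is 13.5 ± 3.54 and 7 ± 2.83 peaks (SD, n = 2 each). The two-sided exact permutation test over libraries gave p = 0.333, the smallest value that 2 against 2 can reach. Without control replicate 1 the difference was 4.5 peaks, against 6.5 with it. A window peak was held by 6 and 6 of 10 members in the knockdown libraries and 5 and 6 in the controls (exact permutation p = 1.0), against 54.6% and 61.7% of all genes in the knockdown libraries and 35.4% and 53.9% in the controls. For artery members alone it was 4 in every library. Gene-end peaks were held by 3 and 4 members in the knockdown libraries and 1 and 3 in the controls (exact permutation p = 0.667). The difference of 1.5 members became 0.5 without control replicate 1.

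List length bears on these sums. As a share of all peaks of a library, the member windows held 0.0804% and 0.0805% in the knockdown libraries and 0.0657% and 0.0658% in the controls (exact permutation p = 0.333). Without Mecom the order turned, to 0.0511% and 0.0402% in the knockdown libraries and 0.0526% and 0.0439% in the controls, with overlapping groups (exact permutation p = 0.667). The order also turned when each list was cut to its 7608 strongest peaks by −log10 q. There were then 3 and 4 peaks in the knockdown libraries and 5 and 4 in the controls (exact permutation p = 0.667). Both replicate 2 libraries thus held 4. Control replicate 1 had 7608 peaks in all, so its list kept its weak peaks. The median difference per window, knockdown mean minus control mean, was 0 peaks over the 10 members and 0 over all genes. It was above 0 for 4 of 10 members, against 40.2% of all genes, and below 0 for 2 of 10, against 5.64%. Both of those, Gja5 and Gja1, rest on 1 peak in 1 control library.

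Joined across the lists, the windows held 22 regions, 10 of them at Mecom. Of these, 3 (13.6%) were knockdown-only, at Efnb2, Gja4 and Mecom, against 10.1% of all regions, and 0 were control-only, against 0.158%. The share near the background is not a result about these genes. Regions held by all 4 libraries numbered 4 (18.2%), at Efnb2, Sema3g, Mecom and Nr2f2, against 20.3% of all regions. Regions held by a single list numbered 13 (59.1%), against 41.9% of all regions. Of the 13, 7 were in knockdown replicate 2, the longest list. Genome-wide, 5698 of the 10595 single-list regions were in that list, a similar share. All 3 knockdown-only regions had a −log10 q under 3 in both knockdown lists, so none was left at that limit. Without control replicate 1 the knockdown-only count was still 3, and 3 regions were then held by control replicate 2 alone.

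Sequence composition of the listed starts separated the members with a covered promoter from the others in part. The Efnb2 promoter had 35 CpG dinucleotides in its 300 bases, more than or as many as 91.8% of 21045 promoters, and Gja4 and Ephb4 had 16 and 14. The upstream Mecom promoter had 19 and was not covered by a peak, with the nearest peak 917 bp or more away. The Alpl upstream promoter had 26 and was also not covered. The promoters of Gja5, Gja1, Sema3g, Bmx and Nr2f2, each at the 1 listed start, had 2 to 8 and were not covered either. Nor were the downstream promoters of Mecom and Alpl, with 9 and 4. Over all promoters, the median was 13 CpG. Of those at or above it, 34.7% were covered by a peak in all 4 libraries and 23.3% in none, and of those below it, 2.84% and 86.8%. The 3 members with a covered listed promoter therefore all lay on the CpG-rich side.

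Motifs were searched on both strands of these windows. The E2-box CACCTG, the site known to be bound by Zeb1, was present in 19.9% of all promoters, and among the members it was found in Efnb2, 167 bases before the start, and in the downstream promoter of Alpl. The Efnb2 match lay inside the peak in all 4 libraries. The ETS core CAGGAA, common to endothelial ETS factors, was present in 28.7% of promoters and matched in Gja4, Bmx and both Alpl promoters. In Gja4 it began 10 bases before the start, inside the peak of both knockdown libraries. The SOX motif ACAAAG (16.8% of promoters) matched in Bmx, Gja5 and both Alpl promoters, and the GATA motif AGATAA (9.68%) matched in Gja1. The hexamer AGGTCA, bound by nuclear receptors such as COUP-TFII (14.6%), matched in the downstream promoters of Mecom and Alpl. The Rbpj motif GTGGGAA (6.07%), the forkhead motif TGTTTAC (3.03%) and the SOX motif ACAATG (10.5%) matched in none of the 12 member promoters. No match to any of these motifs was found in the Ephb4 window, and a match is a string of letters and not a shown binding site.

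Other artery and vein genes gave a setting for the members. Gene-end peaks were listed at 15 and 15 of 30 further artery genes in the knockdown libraries and at 8 and 12 in the controls. Those held by all 4 libraries were Dll4 and Jag1 (Notch ligands), Hey1 and Hey2 (Notch target repressors), Edn1 (endothelin), Clu and Foxc1. Some lists overlap. Clu was also among the astrocyte and Muller glia genes, and Tek and Emcn were in both the vein and pan-endothelial lists. The Notch ligand gene Jag2 was the single knockdown-only gene end, its peaks standing 75.5% and 56.8% from the top, while its window held better-ranked peaks in all 4 libraries (12.8% and 6.21% in the knockdown lists, 19.2% and 12.4% in the controls). Over windows, Fbln5 (an elastic fibre protein) and Gkn3 were knockdown-only, with 1 peak in each knockdown library. Among 25 further vein genes the counts were 8 and 12 in the knockdown libraries and 3 and 9 in the controls. Tmem252 was the single knockdown-only gene end (63.6% and 73.0% from the top), and 3 (Smarca4, Prcp and Cpe) were held by all 4. Of the genes with any gene-end peak, Jag2 was 1 of 16 artery genes and Tmem252 1 of 14 vein genes. Among all such genes, 7.82% were knockdown-only. Fbln5 and Gkn3 were 2 of the 26 artery genes with any window peak, against 6.01% of all such genes. Over all genes, gene-end peaks reached 39.5% and 45.2% of genes in the knockdown libraries and 22.0% and 38.5% in the controls, and the members' 3 and 4 of 10 in the knockdown libraries and 1 and 3 of 10 in the controls were near those shares.

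The relatives of the members were counted in the same way. Gene-end peaks were found at 0 and 5 of 19 other connexin and pannexin genes in the knockdown libraries and at 0 and 1 in the controls. Over windows, Panx1 was knockdown-only, with 1 peak in each knockdown library. It was 1 of the 11 connexin and pannexin genes with any window peak. For the 20 other Eph and ephrin genes the counts were 8 and 9 in the knockdown libraries and 2 and 5 in the controls. Epha1, Epha2 and Efna1 were knockdown-only at a gene end, and Efna5 over its window. The Epha1 gene-end peaks stood 35.1% and 27.9% from the top, and its window held stronger peaks in all 4 libraries (1.02% and 0.955% in the knockdown lists, 22.6% and 4.80% in the controls). The gene-end peaks of Epha2 stood 58.9% and 44.6% from the top, and those of Efna1 were low in both knockdown lists, at 90.9% and 95.3%. For 15 class 3 semaphorin and plexin genes they were 5 and 8 in the knockdown libraries and 0 and 3 in the controls. Plxnb2, Plxnb1 and Sema3f were knockdown-only at a gene end, and Sema3a and Plxnb1 over their windows. The gene-end peaks stood 56.2% and 42.0% from the top for Plxnb2, 66.3% and 67.9% for Plxnb1, and 86.8% and 73.0% for Sema3f. The Plxnb2 window had peaks in all 4 libraries, the best at 11.2% and 5.63% in the knockdown lists. In the control lists they were near the bottom, at 99.3% and 86.3%. The knockdown-only gene ends were 3 of 9 Eph and ephrin genes and 3 of 8 semaphorin and plexin genes with any gene-end peak, against 7.82% of all such genes. Over windows they were 1 of 17 and 2 of 13, against 6.01%. None of these lists had a control-only gene at a gene end or over its window. The lists served as a setting, and no difference between them and the members was tested.

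**Figure D4:**
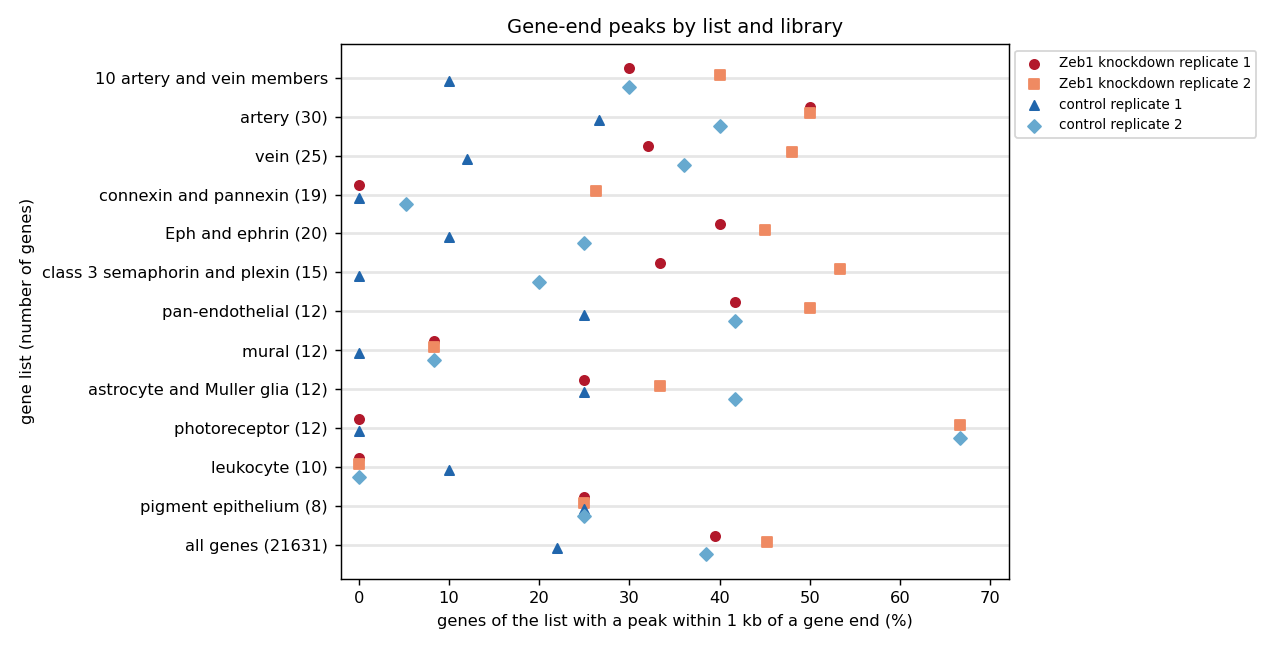
Percent of genes with a peak within 1 kb of a gene end, by gene list and library (4 points per list, knockdown replicates 1 and 2, then control replicates 1 and 2). The members lie at 30% and 40% in the knockdown libraries and 10% and 30% in the controls, near the points of all genes.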

How the data were processed

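ATAC-seq libraries of sorted retinal endothelial cells (2 Zeb1 knockdown, 2 control) were grouped by their titles. The submitters' processing notes name mm10 and MACS2 2.1.1, Bowtie2 2.3.2, bedtools 2.26.0, SAMtools 1.3, Trimmomatic 0.36 and Picard 2.9.2. Their roles and settings, including any shift of reads for the transposase, are not given in the sources used here. The authors deposited 1 broad peak list per library, not pooled. For each deposited peak the authors give a fold enrichment (a ratio over background within that library), a −log10 p and a −log10 q, and a score that runs with the −log10 q. All deposited −log10 q values were above 1. Fold and −log10 q ranked and filtered peaks within a list. Values of different lists stand side by side as descriptions and were not tested.

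Gene ends came from RefSeq on GRCm38.p6 (the mm10 chromosomes), and strand and start from the RefSeq promoter table. Peaks were assigned to windows by an overlap of at least 1 bp, with Python 3.11.15 and pandas 2.3.3, and merged into regions over the 4 lists. Peaks outside the autosomes and X (3 to 22 per list) stayed out of regions. Library sums were compared with a two-sided exact permutation test, and functions were tested on simulated peaks. The members and lists were chosen with earlier results of these data known. All members are named, and of other lists the knockdown-only or control-only genes, up to 6 a list. Genes held by all 4 libraries, the marker examples, and the promoters of Ephb4 and Bmx were added after their values were seen. Results for some single genes are left out of the text. Alternatives covered thresholds, equal list lengths, overlaps, merging, windows, members, single libraries and the replicate block.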

Additional observations from a re-analysis of the deposited data

How the results depend on the processing

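With 2 libraries against 2 no call could pass a threshold, so directions and counts are compared. Under a limit of 3 on −log10 q, the member share of a library's peaks turned to -0.0118 percentage points (knockdown minus control, 0.0146 as reported), the peaks in windows differed by 1.5 (6.5 as reported; 6 and 6 in the knockdown lists, 2 and 7 in the controls), the members with a gene-end peak by 0.5 (1.5 as reported), and knockdown-only regions and gene ends were 0. With the 7608 strongest peaks of each list by −log10 q or by fold enrichment, the share was -0.0131, the members with a window peak -0.5 (0.5 as reported) and the peaks in windows -1, with 0 knockdown-only regions and 0 gene ends. By fold enrichment, 1 region was control-only. Fewer weak peaks enter these settings by construction. The cut to 7608 peaks, however, left the list of control replicate 1 whole. Without Mecom the share was -0.00255. With 50 kb flanks the members with a window peak differed by -1, and 5 regions were knockdown-only. Leaving out each library in turn gave 3 to 10 knockdown-only regions, 0 to 3 control-only regions, 1 to 2 knockdown-only gene ends, 0 to 1 control-only gene ends and differences of 0 to 1 in members with a window peak, 0.5 to 2.5 in members with a gene-end peak and 4 to 9 in peaks in windows. The lowest of these last 2 came without control replicate 1 and without knockdown replicate 2, and the highest without control replicate 2 and without knockdown replicate 1. The knockdown-only regions were 10 without knockdown replicate 1 and 5 without knockdown replicate 2 or control replicate 2, and the gene ends 2 without knockdown replicate 1 (with Nr2f2) or control replicate 2 (with Ephb4). Without control replicate 1 there were 3 control-only regions, 1 control-only gene end (Mecom) and a difference of 0, and without control replicate 2 there was 1 control-only region. Both patterns ask for every library of 1 group and none of the other, so leaving out a library loosens them and their counts can rise by definition. The cause of the other shifts was not tested. With libraries permuted within a replicate number (replicate block), values were unchanged (0.5, 1.5, 6.5 and 0.0146) and p could not go below 0.5. The labels do not say what the numbers share. Same-numbered deviations over window counts of all genes correlated at 0.367. Read depth, which the lists do not give, limits every missing peak.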

Other observations

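Beyond the 10 kb flanks, up to 50 kb from the gene body, the vein receptor gene Ephb4 had further upstream peaks, 3 and 1 in the knockdown libraries and 1 and 3 in the controls. A peak about 16 kb upstream, 15995 to 16467 bp from the gene, was found in both knockdown libraries and in control replicate 2. Another, 42242 to 42390 bp upstream, was found in knockdown replicate 1 and in both control libraries. The Sema3g surroundings held 2 and 4 peaks in the knockdown libraries and 1 and 1 in the controls. One of these, about 45 kb upstream at 31172521 to 31173121 in knockdown replicate 1 and 31172558 to 31173110 in knockdown replicate 2, was in neither control list. Its places were 60.8% and 16.2% from the top. A second, about 21 kb downstream at the high-coordinate end of Phf7, was in all 4 lists. Upstream of Efnb2, both knockdown lists and neither control list held a peak at 8690385 to 8690688 and 8689958 to 8690629, 38.4% and 85.7% from the top in replicates 1 and 2, over the high-coordinate end of the neighbouring gene Arglu1. Knockdown replicate 2 held 1 more Efnb2 peak, 13846 bp downstream. Gja4 had 1 outer peak in knockdown replicate 2, 47334 bp downstream, and 1 in control replicate 2, 47298 bp downstream. Around Gja5, Gja1, Mecom and Nr2f2 no list held a peak in this outer range. The 2 artery genes with empty windows had single outer peaks that no pair of libraries shared: Bmx 1 in control replicate 2, and Alpl 1 each in knockdown replicate 2 and control replicate 2, on opposite sides of the gene.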
